A study of Mus musculus with 99 samples.

Results

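The 9 genes of the mouse Hoxd cluster were followed by name, as Hoxd1, Hoxd3, Hoxd4, Hoxd8, Hoxd9, Hoxd10, Hoxd11, Hoxd12 and Hoxd13, in a count table of 55341 gene names over 16 RNA-seq libraries. All 9 were listed there. The same stretch of chromosome 2 was followed in 74 ChIP-seq peak lists, of 12 antibodies and 4 inputs, from a series of 99 samples. In the GENCODE M21 annotation of mm10 (GRCm38) every Hoxd gene lies on the plus strand, from Hoxd13 at chr2:74668310-74671599 to Hoxd1 at chr2:74762980-74765142, so that 96.8 kb hold the whole cluster. With 5 kb added on each side the window was chr2:74663310-74770142, cut into 107 bins of 1 kb, and 692 of the 408060 deposited peaks overlapped it.

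Hox genes encode homeodomain transcription factors that set positional identity along the body axis, and they are switched on in the order in which they lie on the chromosome, with the genes at the Hoxd13 end coming on last and most posteriorly. In embryonic stem cells the clusters are silent and are textbook targets of Polycomb proteins. Polycomb repressive complex 1 (PRC1) contains RING1A or RING1B, E3 ligases that place a single ubiquitin on histone H2A (H2AK119ub1), and Polycomb repressive complex 2 (PRC2) places H3K27me3 through a core that includes SUZ12 and EED.

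All PRC1 lines were mouse ESCs of one origin, ROSA26:creERT2 Ring1A-/-; Ring1B fl/fl (Parental), in which 4-hydroxytamoxifen (OHT, 0.5 µM) activates Cre and deletes Ring1B. RING1B WT and RING1B I53S cells were clones of this line, selected after transfection with a pCAG vector for FLAG-HA-tagged mouse RING1B, either wild-type or with the I53S substitution in the catalytic RING domain, so each genotype is seen through the clone that was picked. OHT was given for 72 h, or for 48 h in some MTF2 and JARID2 libraries, and ethanol (ETA) was the vehicle. The controls with ETA also lack RING1A, and the transgenic controls with ETA carry both the endogenous and the tagged RING1B. Mtf2 KO derivatives were Cas9 clones of the 3 lines, and ROSA26:creERT2 Eed fl/fl ESCs, derived from blastocysts, lose the PRC2 subunit EED with OHT. RNA was sequenced in 2 replicates, of a kind the labels do not state, for each of 8 groups: Parental, RING1B WT, RING1B I53S and Eed fl/fl, each with ETA and with OHT. Each ChIP-seq condition is a single library, and 2 exist only for MTF2 and JARID2 after 72 h of OHT in the RING1B WT and the RING1B I53S line.

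Counted reads ranged from 8140106 to 12743460 per library in the 12 PRC1-line libraries and from 6957248 to 9443814 in the 4 Eed fl/fl libraries. Rnf2, which encodes RING1B, had 228 CPM (read counts scaled to a common library size, with TMM factors) in Parental ETA and 155 CPM in Parental OHT cells, a count over the whole gene that includes transcript outside the deleted part and is therefore no check of the deletion. Eed had 214 CPM with ETA and 55.4 CPM with OHT in Eed fl/fl cells, a log2 fold change of −1.95 with an adjusted p of 0.0766 that was not called. The ESC label held: all 8 pluripotency markers were read in every group, Pou5f1 at 300 to 502 CPM. With OHT the summed level of these 8 was lower in Parental cells (3244 to 3328 CPM against 5233 to 6369 CPM with ETA) and RING1B I53S cells (3454 to 3525 CPM against 5215 to 6311 CPM), and was 5288 to 5472 CPM in RING1B WT cells (5584 to 6798 CPM with ETA). Markers of other cell types moved with OHT in the same libraries, as given beside the Hoxd results.

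Hoxd transcripts were nearly absent in every PRC1 line without OHT and appeared when Ring1B was deleted without a wild-type replacement. Over the 9 genes together, 12 and 5 reads were counted in the Parental ETA replicates and 286 and 246 reads with OHT, which is 0.978 and 0.618 CPM against 24.4 and 24.0 CPM. RING1B I53S cells went from 28 and 19 reads (2.16 and 1.82 CPM) to 209 and 230 reads (21 and 19.8 CPM). In RING1B WT cells the change was from 9 and 4 reads (0.963 and 0.439 CPM) to 44 and 54 reads (4.43 and 6.73 CPM). The OHT libraries of Parental and RING1B I53S cells therefore lay above every other library of the 3 lines, and the RING1B WT libraries with OHT lay between these and the ETA libraries. Since the RNA is from bulk cultures, more cells expressing a Hoxd gene and more RNA per cell cannot be told apart.

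**Figure D1:**
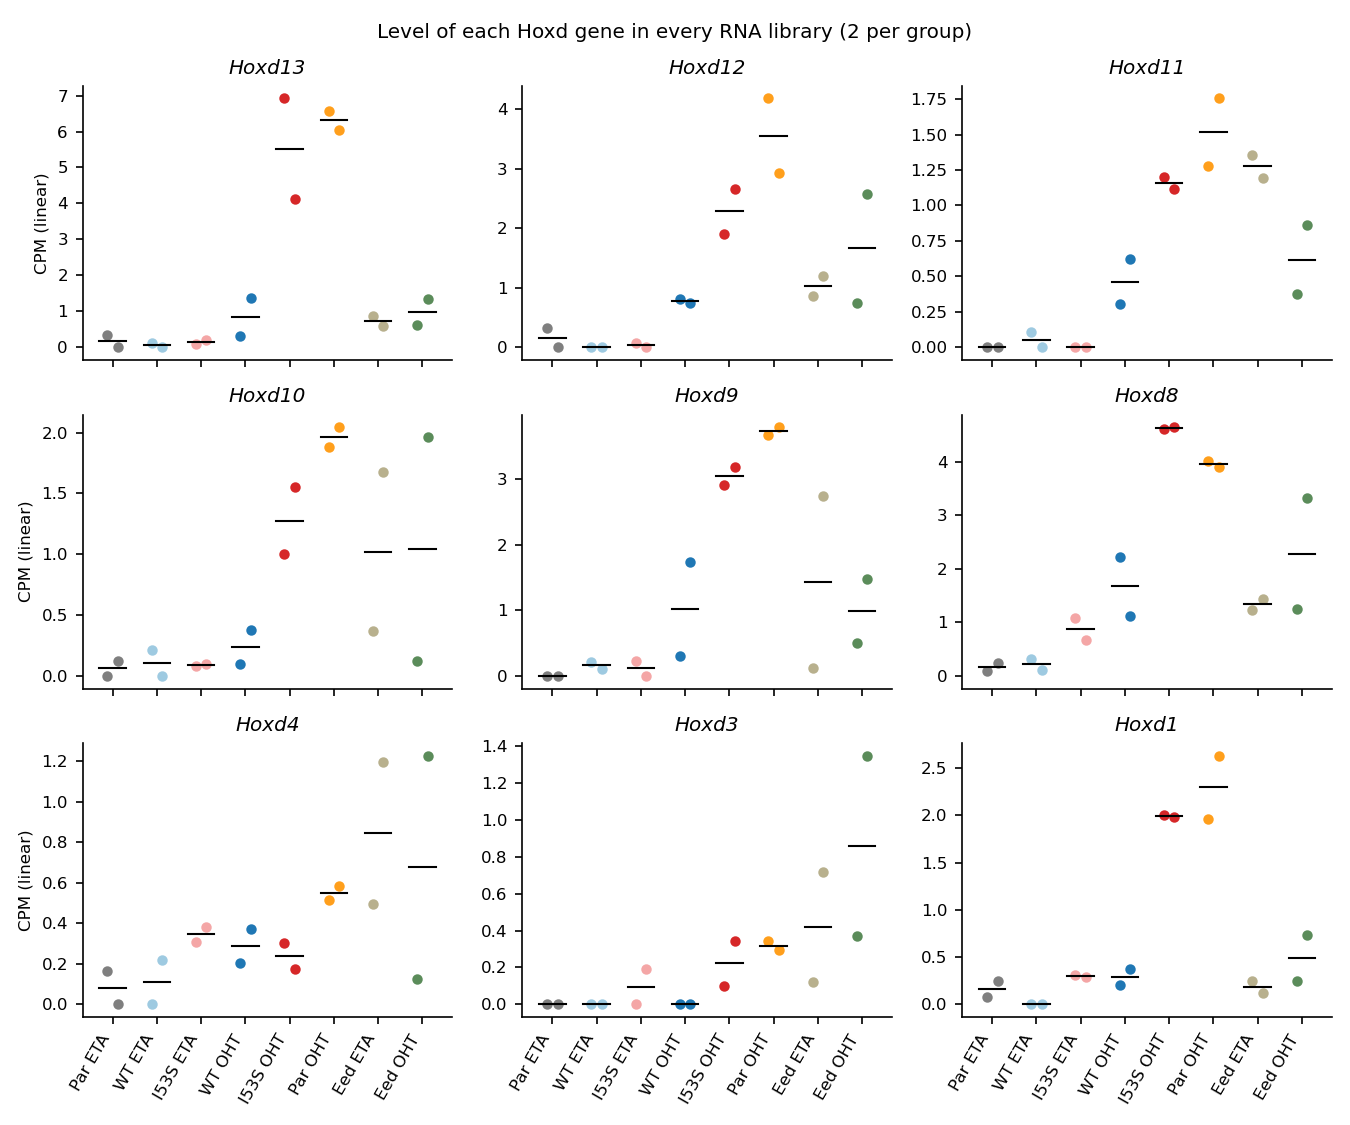
Level of each Hoxd gene in CPM (linear axis, a separate scale for each gene) in every RNA library; points are the 2 replicates of a group and bars their mean. For Hoxd13, Hoxd12, Hoxd11, Hoxd10, Hoxd9, Hoxd8 and Hoxd1 both replicates of Parental OHT and of RING1B I53S OHT lie above both of RING1B WT OHT and above all ETA libraries of the 3 lines.

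A filter on low counts kept 18154 gene names and 7 of the 9 Hoxd genes, leaving out Hoxd3 and Hoxd4. The 7 passed it through the OHT groups in which they are high, so that the number called among them is a description and not support for a change of the cluster. Calls needed a log2 fold change of 1.5 or more in either direction together with an adjusted p under 0.05, by edgeR's quasi-likelihood test with Benjamini-Hochberg adjustment over every gene tested. With OHT all 7 rose in Parental cells, where 15.1% of all genes tested were called higher, and all 7 rose in RING1B I53S cells, where that share was 12.8%. In RING1B WT cells 1 of the 7, Hoxd8, rose, beside 1.34% of all genes, while 6 of the 7 had an unadjusted p under 0.05.

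At the far posterior end of the cluster, Hoxd13, which patterns digits and the genital tubercle and is mutated in human synpolydactyly, was the member with the most reads in Parental OHT cells and over both RING1B I53S OHT libraries, whereas Hoxd8 had the most in RING1B WT OHT cells. Hoxd13 was read 4 and 0 times in Parental ETA and 77 and 62 times in Parental OHT replicates, a CPM ratio of 32.2 (95% counting interval 12.3 to 120) and an adjusted p of 5.95e-05. In RING1B I53S cells Hoxd13 had 1 and 2 reads with ETA and 69 and 48 with OHT, a ratio of 42.2 (14.1 to 208) with an adjusted p of 6.73e-05. RING1B WT cells gave 1 and 0 reads with ETA and 3 and 11 with OHT (ratio 14.4, 2.19 to 608; adjusted p = 0.126, not called). Its level with OHT was 6.31 ± 0.376 CPM in Parental, 5.53 ± 1.97 CPM in RING1B I53S and 0.836 ± 0.755 CPM in RING1B WT cells (mean ± SD, n = 2), and the Parental replicates overlapped those of RING1B I53S but not those of RING1B WT.

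Hoxd12, Hoxd11 and Hoxd10, which act with Hoxd13 and the Hoxa genes in the growth and patterning of the limb, were lower and moved the same way. Hoxd12 was read 4 and 0 times in Parental ETA and 49 and 30 times in Parental OHT libraries (ratio 18.3, 6.87 to 68.8; adjusted p = 0.000571). In RING1B I53S cells it went from 1 and 0 reads to 19 and 31 (ratio 54.1, 9.28 to 2180; adjusted p = 0.000548). RING1B WT cells had no Hoxd12 read with ETA and 8 and 6 with OHT, at least 4.80-fold higher against a floor of 3 reads over the group, with an adjusted p of 0.0567. Hoxd11, which together with Hoxa11 is needed for the forearm and the kidney, was not read at all in the ETA libraries of Parental and RING1B I53S cells. With OHT it reached 15 and 18 reads in Parental cells (10.2-fold over the floor, lower limit 7.84, adjusted p = 0.00109). RING1B I53S cells with OHT had 12 and 13 (9.02-fold, lower limit 6.81, adjusted p = 0.00212), against 3 and 5 in RING1B WT cells. Hoxd10, also known in lumbar motor neurons, had 0 and 1 reads in Parental ETA and 22 and 21 in Parental OHT libraries (ratio 39.9, 6.78 to 1610; adjusted p = 0.00146). For RING1B I53S cells the Hoxd10 reads were 1 and 1 with ETA and 10 and 18 with OHT (ratio 15.2, 3.82 to 131; adjusted p = 0.00902), and RING1B WT cells with OHT had 1 and 3.

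In the middle of the cluster, Hoxd9, a gene of the lower trunk and the limb, was not read in Parental ETA libraries. It was read 43 and 39 times in Parental OHT libraries (25.3-fold over the floor, lower limit 20.1, adjusted p = 0.000114). RING1B I53S cells had 3 and 0 Hoxd9 reads with ETA and 29 and 37 with OHT (ratio 23.8, 7.80 to 118; adjusted p = 0.000998). In RING1B WT OHT libraries Hoxd9 was read 3 and 14 times, 0.302 and 1.74 CPM, the widest gap in CPM between replicates of that group among the 9 genes. Hoxd8, its neighbour, had 14 and 7 reads in RING1B I53S ETA libraries, the most of any member there, against 1 and 2 in Parental ETA and 3 and 1 in RING1B WT ETA libraries. With OHT Hoxd8 had 47 and 40 reads in Parental cells (ratio 26.9, 8.90 to 133; adjusted p = 5.16e-05), 46 and 54 in RING1B I53S cells (ratio 5.16, 3.20 to 8.69; adjusted p = 0.00209) and 22 and 9 in RING1B WT cells (ratio 7.97, 2.82 to 31.1; adjusted p = 0.0403). The smaller ratio of Hoxd8 in RING1B I53S cells thus came with a higher level before OHT and not with a lower level after it, 4.63 ± 0.0252 CPM against 3.96 ± 0.0808 CPM in Parental cells (SD, n = 2).

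At the anterior end, Hoxd1, an early gene that responds to retinoic acid in embryos, had 1 and 2 reads in Parental ETA and 23 and 27 in Parental OHT libraries (ratio 15.5, 4.99 to 77.4; adjusted p = 0.00115). RING1B I53S cells had 4 and 3 Hoxd1 reads with ETA and 20 and 23 with OHT (ratio 6.65, 2.97 to 17.5; adjusted p = 0.00803), whereas RING1B WT cells had none with ETA and 2 and 3 with OHT. Hoxd4 and Hoxd3, which pattern the hindbrain boundary and the neck vertebrae, stayed at or under 6 reads in every library of the 3 lines. Hoxd4 was read 2 and 0 times in Parental ETA and 6 and 6 times in Parental OHT libraries (ratio 5.56, 1.24 to 51.2), and 4 and 4 against 3 and 2 times in RING1B I53S cells (ratio 0.677, 0.174 to 2.35). Hoxd3 had no read in Parental ETA and 4 and 3 in Parental OHT libraries (2.16-fold over the floor, lower limit 1.34). It had none in the 4 RING1B WT libraries. Of the exonic bases of Hoxd3 62.8%, and of those of Hoxd4 52.3%, are shared with each other or with overlapping transcripts, and reads in shared exons could not be given to either gene in an unstranded count by gene name. The low counts of these 2 genes are therefore uncertain, as to a lesser degree are those of Hoxd11 (10.8% shared) and Hoxd10 (5.7% shared).

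Per kilobase of exon that is not shared, the levels in Parental OHT cells ran from Hoxd13 with 2.54 CPM per kb through Hoxd9 (1.75), Hoxd8 (1.44), Hoxd12 (1.4), Hoxd1 (1.23) and Hoxd10 (1.15) to Hoxd11 (0.404), Hoxd4 (0.390) and Hoxd3 (0.204), all in CPM per kb. These levels did not follow gene order, since Hoxd13, the posterior end of the cluster, was highest and Hoxd1, the anterior end, was in the middle of the range. All of them are low, and 1 read was worth 0.0773 to 0.125 CPM in these libraries.

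Fitted log2 fold changes of genes with no or few reads in a group depend on the prior count, so those for the OHT effect in the plot of log2 fold changes of the 7 genes are to be read beside the counts above. Leaving out either RING1B I53S ETA replicate took Hoxd10 (adjusted p = 0.0759 without replicate 1 and 0.0772 without replicate 2) and Hoxd1 (0.0582 and 0.0785) out of the RING1B I53S calls, and leaving out RING1B I53S OHT replicate 2 took Hoxd10 out (0.05). The 7 Parental calls held without any single library. In RING1B WT cells the call of Hoxd8 was lost without ETA replicate 1 (0.0708), ETA replicate 2 (0.395), OHT replicate 1 (0.228) or OHT replicate 2 (0.0905).

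**Figure D2:**
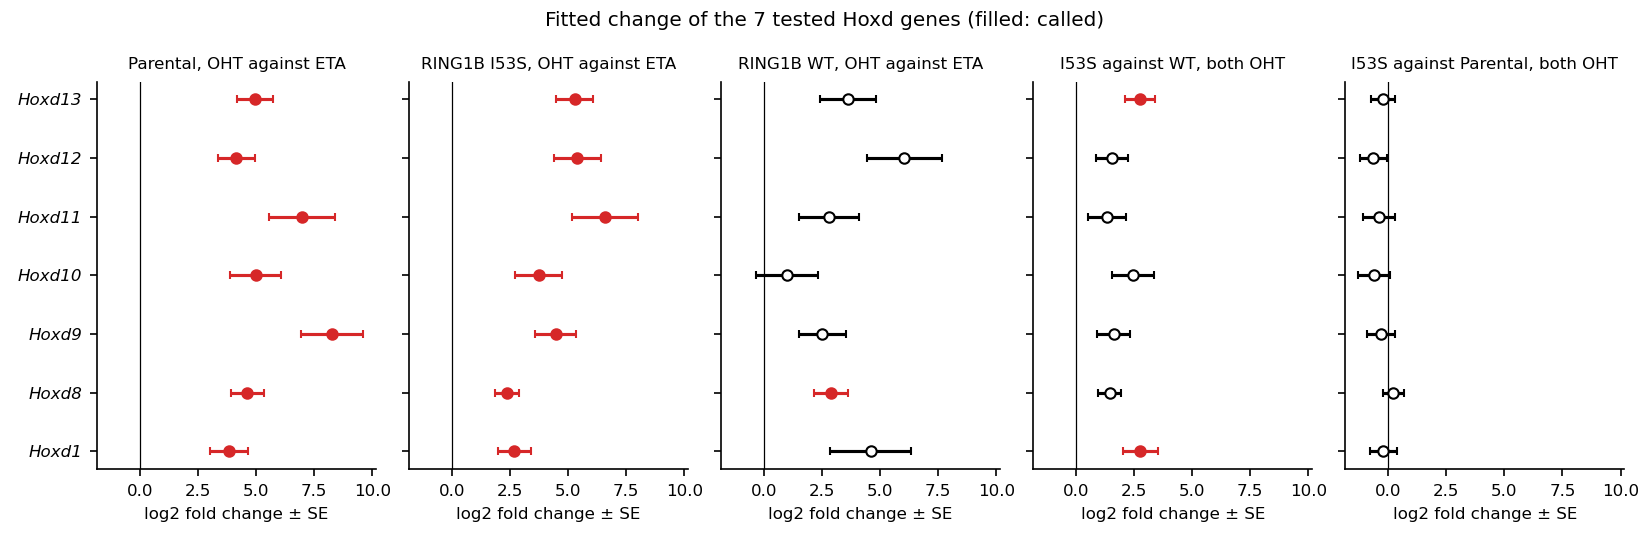
Log2 fold change ± SE of the 7 tested Hoxd genes in 5 comparisons (edgeR, 2 libraries per group); filled red points are called and open points are not. All 7 are called in Parental and in RING1B I53S cells with OHT, 1 in RING1B WT cells, 2 between RING1B I53S and RING1B WT, and none between RING1B I53S OHT and Parental OHT, where the values lie between −0.63 and 0.23.

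Whether the catalytic mutant held the cluster down as wild-type RING1B did was asked by comparing both transgenic lines with OHT. Hoxd13 was higher in RING1B I53S than in RING1B WT cells by a log2 fold change of 2.76 (SE 0.64, adjusted p = 0.00715), and Hoxd1 by 2.78 (SE 0.75, adjusted p = 0.0192). These were 2 of the 7 tested, where 6.02% of all genes were called higher. The other 5 had values between 1.34 (Hoxd11, adjusted p = 0.29) and 2.44 (Hoxd10, adjusted p = 0.0812) and were not called, while 6 of the 7 had an unadjusted p under 0.05. Reads were higher in each RING1B I53S than in each RING1B WT library with OHT, for Hoxd13 (69 and 48 against 3 and 11) and Hoxd1 (20 and 23 against 2 and 3). Both calls were lost in some fits without 1 library, in which a group has no replicate and a call is harder to reach. Without RING1B WT OHT replicate 1, adjusted p was 0.124 for Hoxd13 and 0.19 for Hoxd1, and without RING1B I53S OHT replicate 1 it was 0.052 and 0.0559. Without RING1B WT OHT replicate 2, Hoxd1 had 0.0823 and Hoxd9 was called with 0.0477. RING1B WT OHT replicate 1 had fewer reads than replicate 2 for Hoxd13 (3 against 11) and Hoxd9 (3 against 14) and more for Hoxd8 (22 against 9).

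Compared with Parental OHT cells, RING1B WT OHT cells had lower Hoxd13 (log2 fold change −2.96, SE 0.63, adjusted p = 0.00309), Hoxd10 (−3.05, 0.0207), Hoxd1 (−2.98, 0.00931) and Hoxd12 (−2.18, 0.0287), where the second value of each pair is the adjusted p. That is 4 of the 7, and 7.62% of all genes were called lower. Hoxd9 (−1.91, adjusted p = 0.0599), Hoxd11 (−1.72, 0.143) and Hoxd8 (−1.22, 0.097) were not called, although with the replicate number as a block Hoxd9 was (adjusted p = 0.0453). The number called was 0 without RING1B WT OHT replicate 1, 3 without RING1B WT OHT replicate 2, 2 when Parental OHT replicate 1 was left out and 1 when replicate 2 of that group was.

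When the RING1B I53S and the Parental OHT groups were compared, none of the 7 was called by edgeR or by DESeq2, and none had an unadjusted p under 0.05. Over all genes 0.0661% were called higher and 0.0936% lower. The log2 fold changes ran from −0.63 (Hoxd12) to 0.23 (Hoxd8), with adjusted p from 0.993 to 0.998. For Hoxd13 the difference was −0.20 with a 95% interval of −1.27 to 0.88, for Hoxd8 0.23 (−0.73 to 1.18) and for Hoxd1 −0.20 (−1.40 to 0.99), so that a log2 difference of 1.5 lay outside these intervals. It lay inside those of Hoxd12 (−1.86 to 0.59), Hoxd11 (−1.82 to 1.07), Hoxd10 (−2.03 to 0.82) and Hoxd9 (−1.56 to 0.98). The comparisons among OHT groups share libraries with each other and with the OHT effects above.

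Without OHT, 0 of the 7 were called between RING1B I53S and Parental cells (0.0881% of all genes called higher) or between RING1B WT and Parental cells (0.0496%), by edgeR and by DESeq2. Most of the 7 had few or no reads in the ETA groups, and a fit of only the groups compared tested 0 Hoxd genes. A call could therefore hardly be reached in either of these comparisons. Hoxd8 was the only member with an unadjusted p under 0.05 in the first of these, with a log2 fold change of 2.48 (adjusted p = 0.471) and a ratio of 6.10 (1.82 to 31.9) from 21 reads against 3, and no member had one in the second. How far the OHT effect of RING1B I53S cells departed from that of Parental cells was tested directly, and a difference was called for 0 of the 7 members and 0% of all genes by edgeR, and for no member by DESeq2. In edgeR 1 member, Hoxd8, had an unadjusted p under 0.05, with a smaller OHT effect in RING1B I53S cells by −2.25 (95% interval −4.21 to −0.29, adjusted p = 1). For Hoxd9 the difference was −3.81 (−8.42 to 0.81) and for Hoxd13 0.33 (−2.30 to 2.96), and Hoxd11, with no read in either ETA group, gave no usable estimate. Between RING1B WT and Parental cells the difference in OHT effect was called for none of the 7 by edgeR or DESeq2, and 1 had an unadjusted p under 0.05, while 1.1% of all genes were called lower. Hoxd9 had a difference of −5.76 (adjusted p = 0.221) that rests on the Parental ETA group with no read.

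In Eed fl/fl cells, which were fitted apart, Hoxd reads with ETA were more numerous than in the PRC1 lines: 46 and 91 over the 9 genes (5.68 and 10.9 CPM), followed by 35 and 121 with OHT (4.36 and 14.9 CPM). The replicates of 1 treatment differed more than the treatments did. Hoxd9, for example, was read 1 and 23 times with ETA and 4 and 12 times with OHT, and Hoxd10 was read 3 and 14 times with ETA and 1 and 16 times with OHT. Only Hoxd10, Hoxd9 and Hoxd8 passed the filter, with log2 fold changes of 0.03, −0.54 and 0.77 and adjusted p from 0.849 to 0.991. None was called by edgeR or DESeq2 and none had an unadjusted p under 0.05, beside 0.00795% of all genes called higher. Hoxd13 had 7 and 5 reads with ETA and 5 and 11 with OHT, and Hoxd8 had 10 and 12 against 10 and 27. For Hoxd8 the 95% interval of the log2 fold change was −0.58 to 2.12. The number of genes called over the genome in Eed fl/fl cells was unstable, 2 in all, 161 with a replicate block, 262 without ETA replicate 2 and 37 by DESeq2, and no Hoxd gene was among them in any of these fits. The methods of the study list 2 Eed fl/fl clones, and the labels do not say whether the replicates are these.

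Other transcripts of the same window went with the Hoxd genes in part. Haglr, a long noncoding RNA that starts beside Hoxd1 on the opposite strand, had 4 and 1 reads in Parental ETA and 47 and 46 in Parental OHT libraries and was called higher (adjusted p = 0.000283). In RING1B I53S cells it went from 5 and 4 reads to 35 and 29 (adjusted p = 0.00326), and with OHT it was lower in RING1B WT than in Parental cells (6 and 12 reads, adjusted p = 0.0254). Hoxd3os1, antisense to Hoxd3 and Hoxd4, had no read in Parental ETA and 8 and 7 in Parental OHT libraries, and counting without strand cannot tell it from its sense partners where exons overlap. Beyond Hoxd13, the homeobox gene Evx2 was not read in any ETA library of the 3 lines and had 1 and 3, 8 and 1, and 5 and 1 reads with OHT in RING1B WT, Parental and RING1B I53S cells. Of 9 neighbours of the cluster on chromosome 2, 8 were tested and none was called in any of the 3 OHT comparisons.

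The same comparisons called the other Hox clusters as follows. With OHT, in Parental, RING1B I53S and RING1B WT cells in turn, 7, 6 and 3 of 7 tested Hoxa genes, 7, 7 and 1 of 7 Hoxb genes and 5, 5 and 0 of 8 Hoxc genes rose. Among Hox cofactors, which bind DNA together with Hox proteins, Meis1 (log2 fold change 2.17), Meis2 (1.64) and Meis3 (1.65) rose in Parental cells, 3 of 9 tested, and Meis1 (1.85) and Meis3 (1.52) rose in RING1B I53S cells. Among 6 tested upstream regulators of Hox genes, Cdx1 (2.39), Cdx2 (4.46), Cdx4 (7.51) and Gdf11 (1.73) rose and the retinoic acid receptor Rarg fell (−1.55) in Parental cells, as log2 fold changes, while Cdx2 (4.53) alone was called in RING1B I53S cells. No cofactor or upstream regulator was called with OHT in RING1B WT cells.

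Markers of other cell types moved in the libraries in which Hoxd reads appeared. All 6 primitive endoderm markers rose with OHT in Parental and in RING1B I53S cells and none in RING1B WT cells, their summed level being 2.36 to 2.47 CPM with ETA and 33.5 to 34.4 CPM with OHT in Parental, 2.4 to 3.94 and 25.7 to 28.9 CPM in RING1B I53S, and 2.19 to 3.32 and 5.63 to 9.09 CPM in RING1B WT cells. Foxa2, Gata6 and Sox7 were at 0 in Parental ETA, and Foxa2 and Sox7 in RING1B I53S ETA libraries. Of mesoderm markers, 3 of 4 tested rose in Parental and 2 in RING1B I53S cells (15.2 to 17.6 and 13.3 to 15.3 CPM summed with OHT, against 2.78 to 3.79 CPM over both ETA groups). Trophoblast markers, of which Cdx2 is also among the upstream regulators, had 3 and 2 of 5 tested called higher, neural markers 2 higher and 1 lower and 2 higher of 3, and fibroblast markers 2 and 1 of 3, while of 8 ESC markers 2 and 1 were lower. Their part in the Hoxd counts was not tested.

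By Pearson correlation of log2 levels with the mean of the 7 Hoxd genes over the 12 libraries, the genes outside the Hox clusters with the most similar pattern were Slc7a8 (r = 0.994), an amino acid transporter, Sema6a (0.993), a semaphorin, Dlx5 (0.993), a homeobox gene of the limb and face, Hpcal4 (0.992) and Gm44210 (0.992). The points share the 6 groups, 2 libraries each, and these values describe the split between the OHT libraries of Parental and RING1B I53S cells and the rest.

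On chromatin, the Hoxd cluster of control cells carried broad peaks of most of the Polycomb proteins measured, and these were lost or broken up when RING1B was absent or was the I53S form. A 1 kb bin touched by a peak over 1 bp or more was taken as covered. The 95% Wilson intervals given are over the 107 bins, which are neighbours and not independent, and with 1 library a group has no replicate check, so no test was made. RING1B peaks covered 59.8% of bins (50.3% to 68.6%) in Parental ETA cells, 53.3% (43.9% to 62.4%) in RING1B WT OHT cells, none in Parental OHT cells (up to 3.47%) and 0.935% (0.165% to 5.10%) in RING1B I53S OHT cells. The single RING1B peak left in RING1B I53S cells lay at chr2:74668317-74668952, just inside the start of Hoxd13, was 0.636 kb wide and had a score of 12.7. The score is the −log10 of the MACS2 p-value, which also grows with the width of a peak and the depth of a library.

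The partners of RING1B followed it. CBX7, the chromodomain subunit of canonical PRC1, covered 82.2% of bins in Parental ETA, 58.9% in RING1B WT OHT and none in Parental OHT or RING1B I53S OHT cells. PCGF2, the PCGF subunit of canonical PRC1, covered 77.6% in Parental ETA, 64.5% in RING1B WT OHT and none in Parental OHT cells, but kept 14% (8.68% to 21.8%) in RING1B I53S OHT cells, in 8 peaks at Hoxd13, Hoxd11, upstream of Hoxd10, at the start shared by Hoxd3 and Hoxd4, and near an inner start of Hoxd3. The paper reports that PCGF2 protein is unstable without RING1B and is restored by RING1B WT and by RING1B I53S. Protein amount and binding therefore cannot be told apart between Parental OHT and RING1B I53S OHT cells. PCGF6, of a variant PRC1, had few peaks in Parental ETA cells (13.1% of bins) and more in RING1B WT OHT cells (43.0%), with 4.67% left in Parental OHT and 6.54% in RING1B I53S OHT cells. Among those left, the PCGF6 peak at Hoxd1 had a score of 56.6, higher than at Hoxd3 (24.3), Hoxd9 (14.7) and Hoxd11 (14.3) in the same library. RYBP, another subunit of variant PRC1, covered 7.48% of bins in Parental ETA, 6.54% in RING1B WT OHT and 0.935% in RING1B I53S OHT cells, and no library was assigned to Parental OHT.

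H2AK119ub1 covered 78.5% of bins in Parental ETA and 80.4% (71.9% to 86.8%) in RING1B WT OHT cells, against 24.3% (17.2% to 33.2%) in Parental OHT and 12.1% (7.24% to 19.7%) in RING1B I53S OHT cells. The difference between RING1B I53S and RING1B WT cells was −68.2 percentage points (95% Newcombe interval over bins −76.3 to −56.9). The peaks in RING1B I53S cells lay within 2.5 kb of the starts of Hoxd13 (score 32.0), Hoxd11 (23.3), Hoxd10 (14.8), Hoxd1 (12.9) and Hoxd9 (11.6). None lay within 2.5 kb of a start of Hoxd12, Hoxd8, Hoxd4 or Hoxd3. The bin with the Hoxd1 start had a peak in Parental OHT and RING1B I53S OHT cells, but in neither Parental ETA nor RING1B WT OHT cells. Parental OHT cells, with neither RING1A nor RING1B, thus also had such peaks. For RING1B I53S cells the paper reports complete loss of the mark at PRC1 targets, and whether their peaks are residual mark was not tested. Across the genome the H2AK119ub1 peaks of these cells covered 4.38 Mb against 33.8 Mb in RING1B WT OHT cells. The peak lists carry no read depth, so an amount of the mark cannot be read from them.

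**Figure D3:**
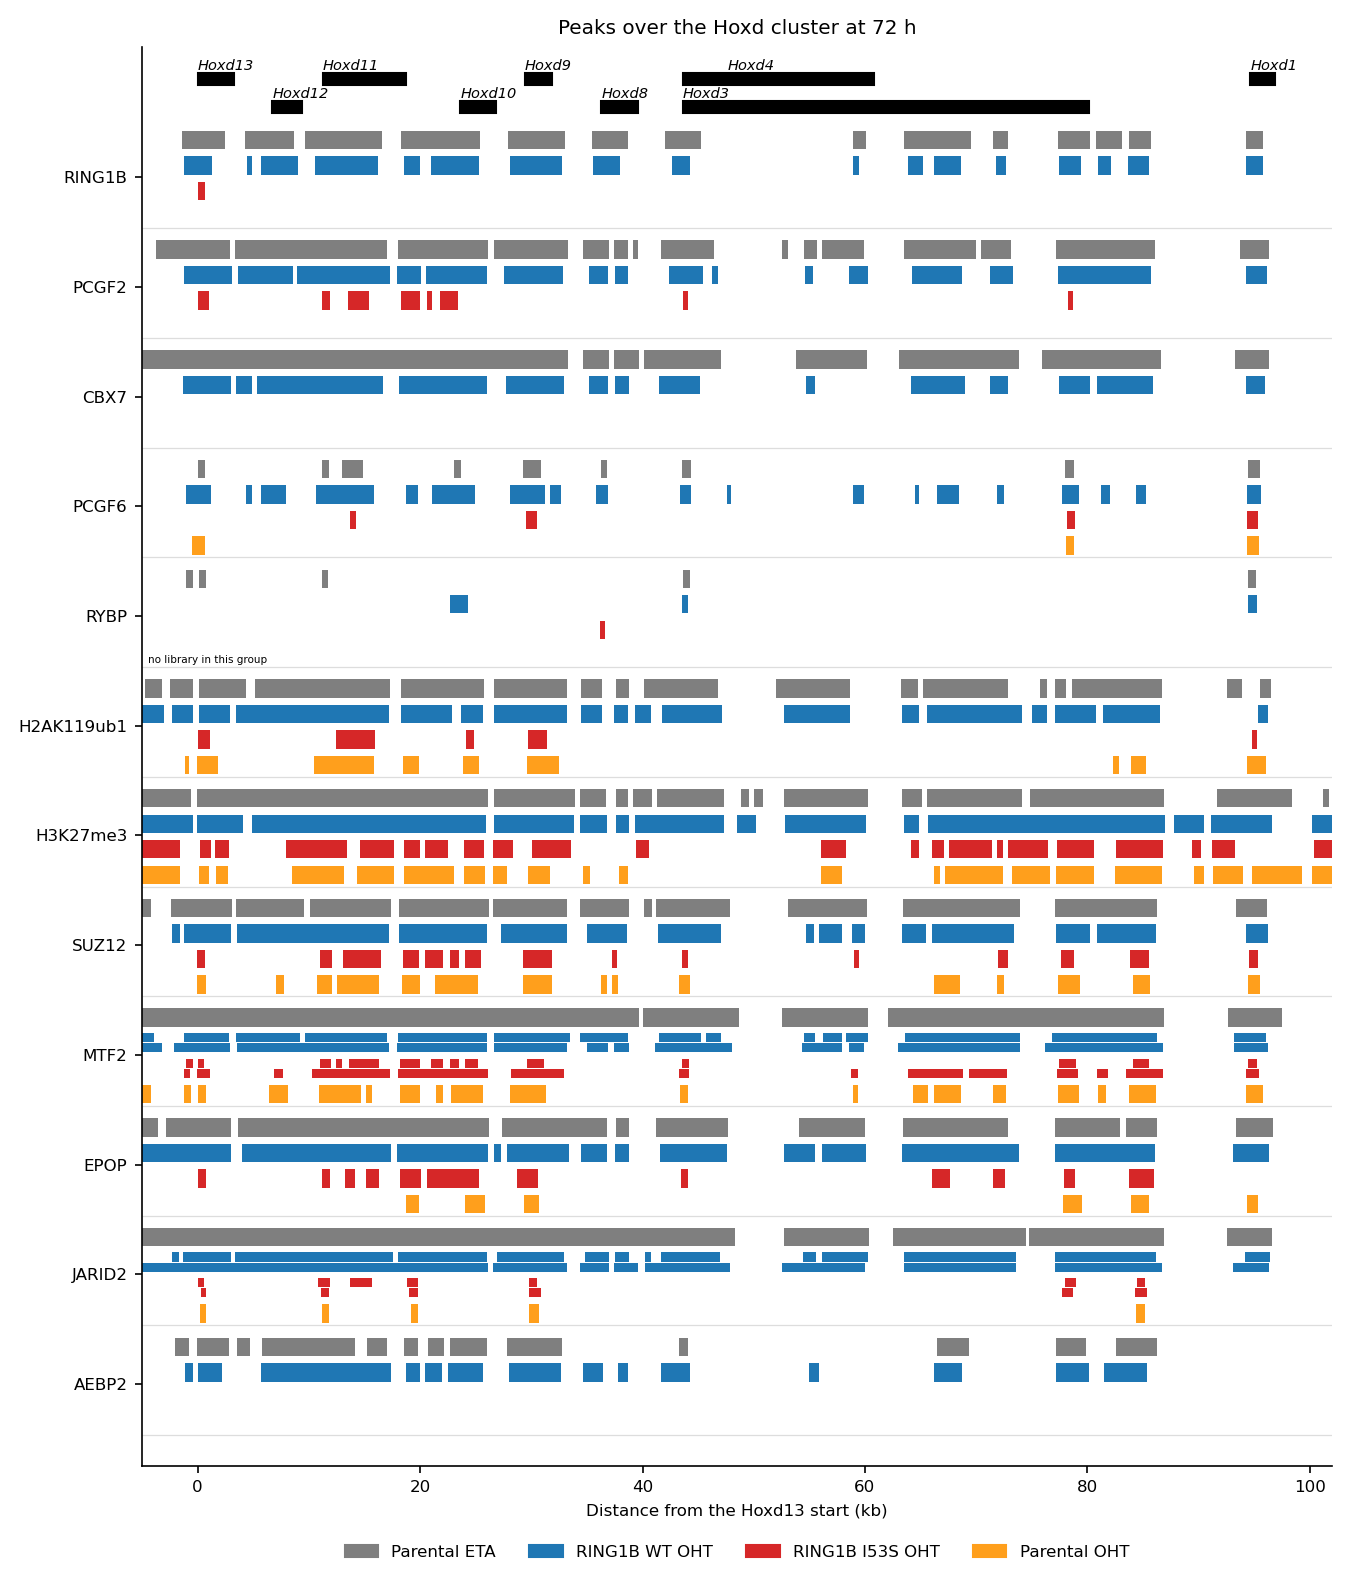
Peaks of 12 antibodies over the Hoxd cluster at 72 h, by distance from the Hoxd13 start in kb, with the 9 gene models in black at the top; within an antibody the tracks are, from top to bottom, Parental ETA (grey), RING1B WT OHT (blue), RING1B I53S OHT (red) and Parental OHT (orange), with thinner tracks where a group has 2 libraries. Grey and blue tracks are broad between Hoxd13 and Hoxd9 except for PCGF6 in Parental ETA cells (17.9% of those bins) and RYBP (10.3% and 7.69%), and the red and orange tracks are empty (CBX7, AEBP2) or reduced to shorter peaks, least so for H3K27me3. Peaks of any score are drawn.

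PRC2 was thinned rather than cleared. SUZ12 covered 78.5% of bins in Parental ETA and 73.8% in RING1B WT OHT cells, and kept 33.6% (25.4% to 43.0%) in Parental OHT and 31.8% (23.7% to 41.1%) in RING1B I53S OHT cells, a difference between RING1B I53S and RING1B WT of −42.1 percentage points (−53.0 to −29.1). H3K27me3 went from 91.6% and 94.4% to 64.5% and 61.7% in the same order. AEBP2, a subunit of the PRC2.2 form of the complex, covered 45.8% and 50.5% and was gone from both Parental OHT and RING1B I53S OHT cells. JARID2, the other PRC2.2 subunit, covered 86.9% of bins in Parental ETA cells and 74.8% and 80.4% in the RING1B WT OHT libraries, but 6.54% in Parental OHT and 13.1% and 9.35% in the RING1B I53S OHT libraries. Counting peaks of any score, the subunits of PRC2.1 kept more bins than those of PRC2.2 within each line. MTF2 covered 87.9% in Parental ETA, 76.6% and 79.4% in RING1B WT OHT, 43.0% in Parental OHT, and 25.2% and 49.5% in RING1B I53S OHT libraries. EPOP had 76.6%, 79.4%, 13.1% and 27.1% in Parental ETA, RING1B WT OHT, Parental OHT and RING1B I53S OHT cells. In Parental OHT cells EPOP was thus nearer to JARID2 (6.54%) than to MTF2 (43.0%). The median score of EPOP peaks in the window was 83.6, 77.2, 14.3 and 16.6 in that order of groups. With only peaks scored 20 or more, both EPOP differences were larger, as given with the processing alternatives.

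Where 2 libraries were available, the RING1B I53S libraries of MTF2 and of JARID2 lay below both RING1B WT libraries, with mean differences of −40.7 (MTF2) and −66.4 (JARID2) percentage points. The 2 RING1B I53S libraries of MTF2 were far apart, with 16.2 and 39.6 kb under peaks in the window and 3.63 and 11.2 Mb over the genome, and without the second of them the MTF2 difference was −52.8 percentage points and without the first −28.5. At 48 h, with 1 library each, MTF2 covered 58.9% of bins in Parental, 84.1% in RING1B WT and 72.9% in RING1B I53S cells, and JARID2 29.0%, 80.4% and 16.8%. The difference between RING1B I53S and RING1B WT at 48 h was −11.2 percentage points (−22.0 to −0.17) for MTF2, or −23.4 when at least 50% of a bin had to be covered, and −63.6 (−72.3 to −51.7) for JARID2. Before OHT both subunits covered the cluster in the 2 transgenic lines as well, MTF2 84.1% (RING1B WT) and 85.0% (RING1B I53S), JARID2 86.0% and 83.2%.

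In Mtf2 KO cells SUZ12 covered 80.4% of bins in Parental ETA and 75.7% in RING1B WT OHT cells, close to the 78.5% and 73.8% of cells with MTF2. The peaks were weaker, however. Their median score in the window was 22.5 against 423 with MTF2 in Parental ETA cells, and 29.8 against 193 in RING1B WT OHT cells. A similar share of bins is therefore no similar amount of SUZ12, which the paper reports to be lower after MTF2 loss. In Parental OHT and RING1B I53S OHT cells that lacked MTF2 no SUZ12 peak was left in the window (0 of 107 bins, up to 3.47%), where 33.6% and 31.8% had remained with MTF2. H3K27me3 in the Mtf2 KO lines covered 69.2% in Parental ETA, 56.1% in RING1B WT OHT, none in Parental OHT and 2.80% in RING1B I53S OHT cells. With only the H3K27me3 peaks scored 20 or more, the difference between RING1B I53S and RING1B WT in these lines was −10.3 percentage points in place of −53.3, and that between Parental OHT and ETA −11.2 in place of −69.2. Over the genome SUZ12 peaks of the last 2 Mtf2 KO groups covered 1.76 and 0.703 Mb, against 8.94 Mb in RING1B WT OHT cells without MTF2. The 4 input libraries of the Mtf2 KO lines had no peak in the window. No RNA library of an Mtf2 KO line was analysed here, so Hoxd transcripts of these cells are not known from the counts.

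**Figure D4:**
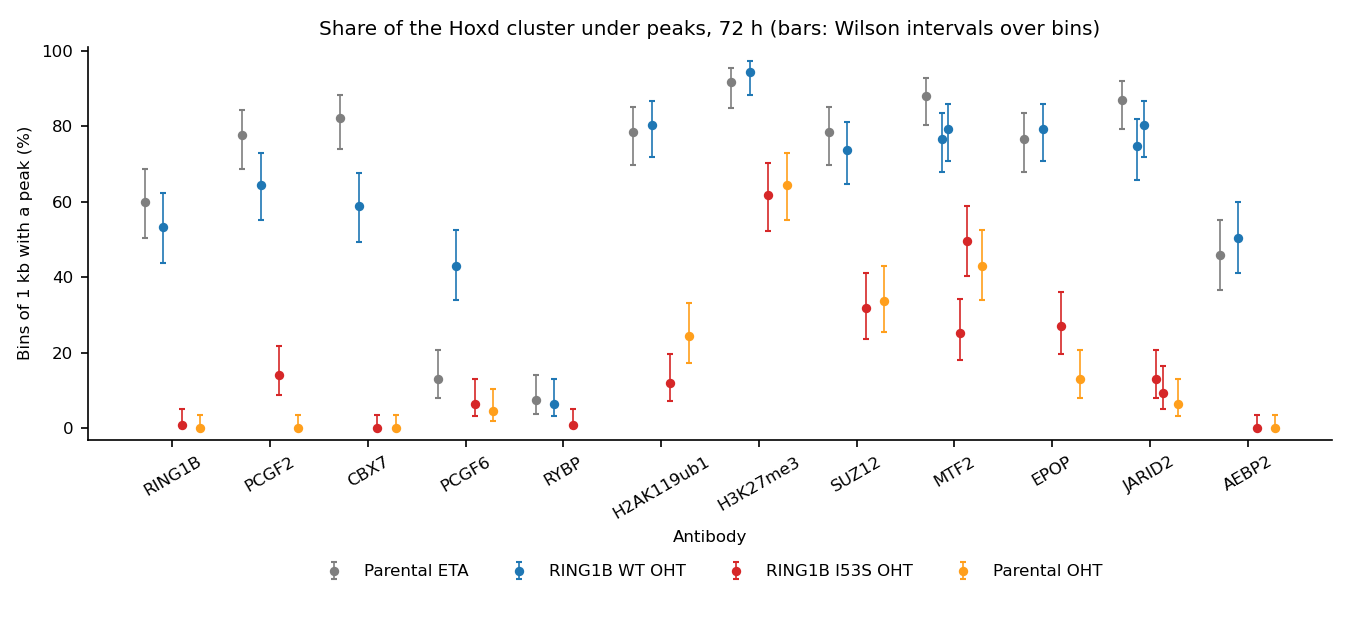
Percentage of the 107 bins of 1 kb of the Hoxd window with a peak, for 12 antibodies at 72 h; each point is a library and bars are 95% Wilson intervals over bins. Parental ETA (grey) and RING1B WT OHT (blue) lie far above RING1B I53S OHT (red) and Parental OHT (orange) for every antibody but RYBP and PCGF6 in Parental ETA cells. H3K27me3 keeps at least 61.7% in all 4 conditions when peaks of any score are counted.

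The cluster was not covered evenly. In RING1B WT OHT cells RING1B peaks covered 76.9% of the bins from Hoxd13 to Hoxd9 and 40.3% of those from Hoxd8 to Hoxd1, as in Parental ETA cells (84.6% and 46.3%). In RING1B I53S OHT cells the share still covered was higher in the posterior part for several antibodies, for H2AK119ub1 28.2% against 2.99%, for SUZ12 51.3% against 20.9%, for MTF2 48.7% and 71.8% against 11.9% and 37.3%, and for JARID2 25.6% and 15.4% against 5.97% in each library. H3K27me3, with 84.6% against 49.3%, had the same order with a smaller ratio, and RYBP, with a single bin, had 0% against 1.49%. The genes lie closer together in the posterior part, and the long Hoxd3 and Hoxd4 models fill the anterior one.

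Counted by gene, with a promoter reaching 2.5 kb to each side of any annotated start, RING1B peaks lay on 9 of 9 Hoxd promoters in Parental ETA cells (9.33% of all genes had one), 0 in Parental OHT (0.69%), 9 in RING1B WT OHT (7.04%) and 1 in RING1B I53S OHT cells (1.46%). For H2AK119ub1 the counts were 9 (12.3% of all genes), 5 (10.4%), 9 (15.0%) and 5 (5.74%) in the same order, and for SUZ12 9 (15.3%), 9 (10.9%), 9 (12.5%) and 8 (6.64%). MTF2 lay on 9 (27.9%), 8 (13%), 9 and 9 (14.7% and 13.2%), and 7 and 8 (5.92% and 13%). Over the 14 libraries of RING1B I53S cells with 72 h of OHT, Hoxd13 and Hoxd11 promoters each had a peak in 10, Hoxd9 and Hoxd3 in 9, Hoxd10 in 7, and Hoxd4 and Hoxd1 in 6. Hoxd12 and Hoxd8 had one in only 2 of the 14. Their peaks there came from MTF2 and H3K27me3 (Hoxd12) and from SUZ12 and RYBP (Hoxd8). In the 14 libraries of RING1B WT cells with OHT every Hoxd promoter had a peak in 13 or 14. Promoters that lost nearly every peak, such as Hoxd8, and promoters that kept many, such as Hoxd13, were both called higher in RING1B I53S cells with OHT.

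The 250 bases before the start of Hoxd13 and Hoxd1, which had H2AK119ub1 peaks in RING1B I53S OHT cells, and of Hoxd12 and Hoxd8, which had none, are shown from RefSeq (GRCm38.p6, plus strand) with CG dinucleotides in capitals, since Polycomb complexes are known to gather at CG-rich DNA in ESCs. CG reads the same on both strands. They lie at chr2:74667975-74668224 (Hoxd13), chr2:74762730-74762979 (Hoxd1), chr2:74674763-74675012 (Hoxd12) and chr2:74704365-74704614 (Hoxd8), upstream of the annotated transcripts.
Hoxd13: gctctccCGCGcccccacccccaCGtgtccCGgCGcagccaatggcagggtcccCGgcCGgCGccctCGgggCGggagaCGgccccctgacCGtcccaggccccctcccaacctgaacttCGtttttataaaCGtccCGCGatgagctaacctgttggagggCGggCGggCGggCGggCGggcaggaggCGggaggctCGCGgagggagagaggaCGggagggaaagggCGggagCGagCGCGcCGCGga
Hoxd1: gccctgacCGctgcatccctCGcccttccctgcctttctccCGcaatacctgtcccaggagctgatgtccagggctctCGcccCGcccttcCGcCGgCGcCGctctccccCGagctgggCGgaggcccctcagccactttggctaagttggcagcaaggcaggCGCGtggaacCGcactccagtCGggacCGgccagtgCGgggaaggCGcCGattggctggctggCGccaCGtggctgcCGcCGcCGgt
Hoxd12: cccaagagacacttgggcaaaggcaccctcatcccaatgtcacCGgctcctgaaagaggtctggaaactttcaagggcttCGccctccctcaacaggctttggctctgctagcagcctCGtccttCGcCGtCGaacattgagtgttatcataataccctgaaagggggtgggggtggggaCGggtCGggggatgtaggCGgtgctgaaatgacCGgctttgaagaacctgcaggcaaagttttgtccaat
Hoxd8: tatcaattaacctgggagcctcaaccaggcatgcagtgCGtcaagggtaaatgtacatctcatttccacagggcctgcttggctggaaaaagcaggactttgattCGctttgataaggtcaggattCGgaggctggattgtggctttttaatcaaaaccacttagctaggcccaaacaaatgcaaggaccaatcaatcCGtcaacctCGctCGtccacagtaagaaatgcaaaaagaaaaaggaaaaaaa

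These stretches hold 31 CG dinucleotides (Hoxd13), 24 (Hoxd1), 10 (Hoxd12) and 6 (Hoxd8). As many or more were found before 5.19%, 12%, 37.8% and 50.4% of the 32851 RefSeq starts. The other members had 20 before Hoxd10 and before the inner start of Hoxd11, 2 before its outer start, 13 before Hoxd9, 12 before Hoxd3 and 3 before Hoxd4. The 5 members with an H2AK119ub1 peak in RING1B I53S OHT cells had at least 13 before a start and the 4 without one had at most 12, with Hoxd9 (13) and Hoxd3 (12) next to each other in this order. The same 5 members had such a peak in Parental OHT cells, with neither RING1A nor RING1B, so the split is not particular to RING1B I53S cells. Peaks were counted up to 2.5 kb to each side of any annotated start, and CG in shorter stretches. The order did not hold for the 1 kb bins that contain a start. Without a peak, Hoxd8 (89 CG per kb) and the first start of Hoxd3 and Hoxd4 (60) lay above Hoxd10 (49), with one. Hoxd8 also lay above Hoxd13 (83) and Hoxd1 (79), whereas Hoxd12 (36), without a peak, lay below all of these. The order before the starts was seen in the values and was not tested.

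Over the whole window the median was 18.0 CG per kb, against 7.0 over 178302 bins of chromosome 2, and the bins that kept peaks were the CG-rich ones for most antibodies. For MTF2, the 27 bins with a peak in both RING1B I53S OHT and both RING1B WT OHT libraries had a median of 46.0 CG per kb, the other 54 bins with a peak in both RING1B WT libraries 19, and the remaining 26 bins 7.0. For SUZ12 the medians were 45 (34 bins with a peak in RING1B I53S and RING1B WT), 19 (45 bins, RING1B WT only) and 7.0 (28 bins, no peak in RING1B WT). JARID2 gave 55.0, 25.0 and 7.0, EPOP 35.0, 19 and 7.0, and H2AK119ub1 59.5, 19 and 8.4 CG per kb. H3K27me3 went the other way between the first and second class, with 17.5 CG per kb in the 66 bins that kept a peak and 24.0 in the 35 that did not. The bins are neighbours, and the RING1B WT and RING1B I53S values come from 1 library each except for MTF2 and JARID2, so these medians are descriptions.

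**Figure D5:**
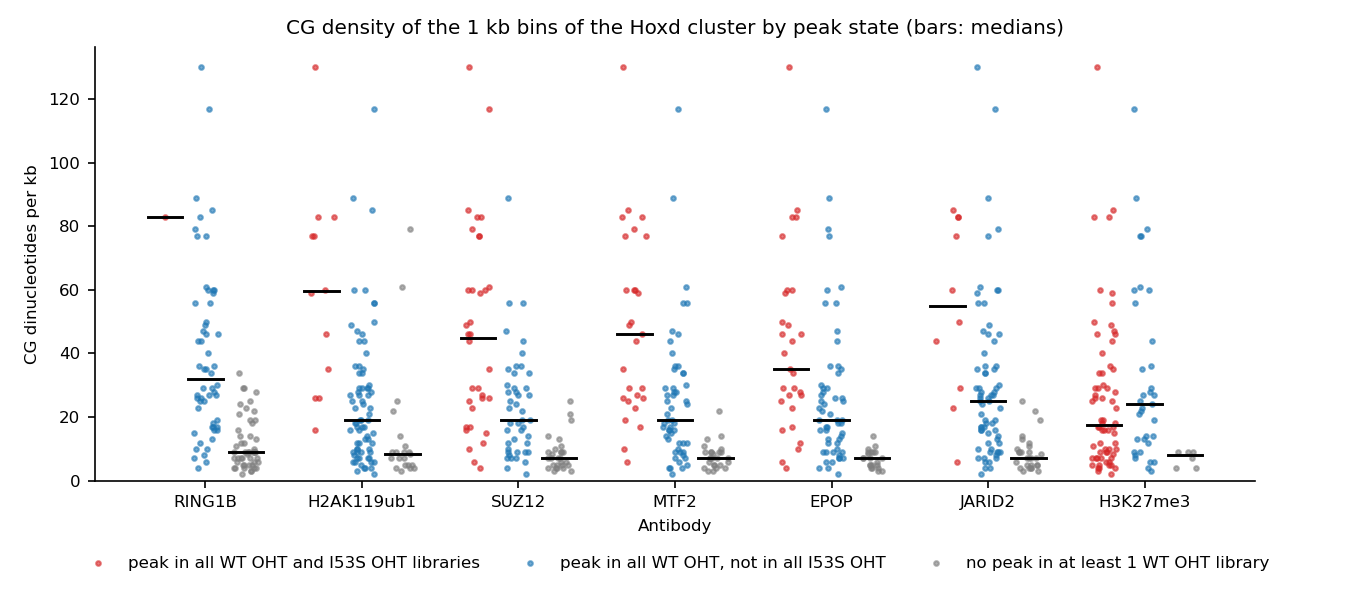
CG dinucleotides per kb in each 1 kb bin of the Hoxd window (points) and their median (black bars), for 7 antibodies, split by whether the bin has a peak in all RING1B WT OHT and RING1B I53S OHT libraries (red), in all RING1B WT OHT but not all RING1B I53S OHT libraries (blue), or lacks one in at least 1 RING1B WT OHT library (grey), where MTF2 and JARID2 have 2 libraries per line and the others 1. Red medians lie above blue ones for RING1B, where a single bin is red, and for H2AK119ub1, SUZ12, MTF2, EPOP and JARID2, and below for H3K27me3.

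The other Hox clusters were measured by the same rule, with no test of their differences from Hoxd. In RING1B I53S OHT cells SUZ12 covered 34.5% of bins at Hoxa, 40.8% at Hoxb and 18.3% at Hoxc against 31.8% at Hoxd, and JARID2 3.88%, 14.1% and 3.97% against 11.2% at Hoxd. H2AK119ub1 in these cells covered 6.90% at Hoxa, 29.9% at Hoxb and none at Hoxc against 12.1% at Hoxd. RING1B was at 0, 3.26% and 0 against 0.935%.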

How the data were processed

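RNA libraries were made with a SMART-seq2 protocol, without strand. The authors mapped the reads uniquely to mm10 (STAR 2.7), removed duplicates with samblaster and deposited raw counts per GENCODE M21 gene name from featureCounts. For ChIP-seq they used Bowtie 1.2.2 and called peaks in each library with MACS2 2.1.1 against an E14 input, as the names of the deposited lists give it, at a p-value of 1e-10, and the score in the deposited lists is the −log10 p-value, at least 10. Deposited tables of the authors' own comparisons were not used.

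The members and gene lists were chosen with earlier results of these data known. Differential expression used edgeR 4.0.16 under R 4.3.3 (TMM, filterByExpr over 6 groups, one quasi-likelihood fit of 12 libraries without a replicate block, 18154 of 55341 genes tested). A separate fit served the Eed fl/fl libraries (25170 genes). DESeq2 1.42.0 was an alternative. Standard errors were taken from the log2 fold change and its test, and its 95% intervals use the t quantile of that test. Ratios of summed counts have exact 95% intervals for counting error only. With a group at 0, the fold is a point value over a floor of 3 counts in that group, given beside the lower limit of the interval. Depth set the precision: 1 read was worth 0.0773 to 0.125 CPM. In simulated data, 98% of genes with a log2 fold change of 2 and 6% of those with 1 were called in the Parental comparison, and 70% and 8% in the Eed fl/fl comparison. The changed genes had a mean above 1 CPM and the OHT group was raised above that mean. These shares therefore do not hold for genes that rise from nearly no reads, as the Hoxd genes do. Peaks were analysed in Python 3.11.15. Named genes were the 9 members, other genes of the window, the neighbours, the listed cofactors and upstream regulators, and the 5 genes outside the Hox clusters most correlated with the members.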

Additional observations from a re-analysis of the deposited data

How the results depend on the processing

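The count of Hoxd genes called moved by over 1.5 times in 12 of 129 alternatives, and the 29 differences in bin share moved beyond their interval in 26 of 153, with no change of sign. With OHT in RING1B WT cells (1 called), DESeq2 called 2, no filter on low counts 3 and a fit of only the groups compared 0 of the 1 Hoxd gene it tested, with 0 to 0 when each library was left out. Between RING1B I53S and RING1B WT with OHT (2 called) leaving out libraries gave 0 to 2, and between RING1B WT and Parental with OHT (4 called) 0 to 3. With the replicate number as a replicate block, 5 Hoxd genes were lower in RING1B WT than in Parental cells, Hoxd9 being added (adjusted p = 0.0453), and no other count changed. Same-numbered libraries correlated over 0.1 in 9 of 15 pairs of groups (−0.00748 to 0.366), so the numbers were not taken to pair the samples over the whole design. Within a treatment all pairs were above 0.1, from 0.286 to 0.366 with ETA and from 0.15 to 0.194 with OHT, which is a hint from the data and not stated in the labels. No Hoxd gene had 10 counts in every one of the 12 libraries, so that filter gave no value.

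Requiring at least 50% of a bin to be covered gave, for RING1B I53S minus RING1B WT, −32.7 (RING1B), −23.4 (MTF2, 48 h), −37.4 (AEBP2) and −42.1 percentage points (H3K27me3, Mtf2 KO), and for Parental OHT minus ETA −47.7 (RING1B), −63.6 (PCGF2), −32.7 (AEBP2) and −54.2 (H3K27me3, Mtf2 KO). Restricting the peaks to scores of 20 or more gave, for RING1B I53S minus RING1B WT, −57.9 (H3K27me3), −68.2 (EPOP), −29.0 (AEBP2), −10.3 (H3K27me3, Mtf2 KO) and −65.4 (SUZ12, Mtf2 KO), and for Parental OHT minus ETA −50.5 (H3K27me3), −58.9 (MTF2), −74.8 (EPOP), −86.9 (JARID2), −23.4 (AEBP2), −11.2 (H3K27me3, Mtf2 KO) and −71.0 (SUZ12, Mtf2 KO). With 20 kb on each side the differences were −51.1 (JARID2, 48 h, RING1B I53S minus RING1B WT) and, for Parental OHT minus ETA, −66.4 (PCGF2), −72.3 (CBX7), −69.3 (JARID2) and −67.2 (SUZ12, Mtf2 KO). Leaving out a library gave −52.8 to −28.5 for MTF2 and −69.2 to −63.6 for JARID2 at 72 h. The cause of these shifts was not tested, except that a wider window adds bins outside the cluster.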

Other observations

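A RYBP library whose label does not say whether it had OHT was put in no group and had no peak in the Hoxd window.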
